A study of Bos taurus with 92 samples.

Results

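Single bovine blastocysts obtained by nuclear transfer (NT) were compared with single blastocysts obtained by artificial insemination (AI). All embryos with the label type NT (15) and all with the label type AI (14) were taken, which is 29 of the 46 samples of the series, and all 4398 named genes measured were examined. NT embryos are reconstructed from an oocyte and the nucleus of a somatic donor cell and develop in the laboratory, whereas AI embryos arise by fertilisation in the inseminated cow. The other samples were 15 embryos fertilised in vitro (IVF) and 2 samples of the donor cells, and they are given beside the comparison where they help to place a gene. Each embryo was hybridised on 2 custom 2-colour cDNA arrays against the same reference RNA, one with the embryo in Cy5 and one with it in Cy3, and the mean of both arrays is 1 value per embryo. The labels give no breed, sex, embryo age, culture condition, donor cell line or tissue, oocyte source, hybridisation batch or date, and a batch effect and the kind of embryo therefore cannot be told apart. NT embryos carry the labels 2_ (8 embryos) or 3_ (7 embryos) and 3 AI embryos carry the label H, without explanation in the labels.

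A blastocyst consists of an outer trophectoderm, which pumps fluid into the cavity and later forms the placenta, and an inner cell mass, from which the primitive endoderm separates. In nuclear transfer the gene programme of the donor nucleus has to be replaced by that of the embryo within a few cell divisions. Cells that are short of amino acids or under stress in the endoplasmic reticulum raise the transcription factor ATF4, whose targets include enzymes of serine synthesis, amino acid carriers and aminoacyl-tRNA synthetases.

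Values are log2 ratios of the embryo over the reference after each array was centred on its median, so that 0 is the median spot of an array. Differences are log2 values of NT minus AI, with the standard error (SE) after ±, from a linear model across all genes (limma). P values are 2-sided and adjusted by the Benjamini-Hochberg method over the 4398 genes, and a gene is said to rise or fall in NT embryos at an adjusted p under 0.05. No source used here states the direction of the deposited ratio. It was taken as Cy5 over Cy3 and is likely, not settled, and the opposite reading would turn every sign below. Under this Cy5 over Cy3 reading keratins KRT8, KRT18 and KRT19 were higher in embryos than in donor cells. The fibroblast genes COL1A2, COL3A1 and VIM were lower in embryos. The blastocyst marker TFAP2A was lower and the fibroblast marker THY1 higher in embryos. A whole embryo was measured, and fewer cells of a type cannot be told apart from less RNA per cell.

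The arrays of NT and AI embryos differed in several technical measures. Cy5 and Cy3 arrays of an embryo correlated, after the sign of the Cy3 array was turned, with r from 0.638 to 0.704 in NT and 0.548 to 0.730 in AI embryos. In the 2 donor cell samples r was lower, at 0.325 and 0.248, which limits every comparison with donor cells below. The SD of the values over probes was lower in NT (mean 1.13) than in AI embryos (1.18, permutation test, adjusted p = 0.00032 over 4 measures). As deposited, before centring, the array median of an embryo averaged 0.11 ± 0.19 (SD, n = 15) in NT and -0.31 ± 0.29 (SD, n = 14) in AI embryos, and 15 of 15 NT embryos lay above the AI mean (permutation test, adjusted p = 0.00044). This difference of 0.41 is removed by centring, and its part in the results was not tested. It bears on every direction below. As deposited, 1978 genes were higher (45.0%) and 19 lower (0.432%) in NT embryos.

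In the centred values 355 of 4398 genes passed the threshold (8.07%), 167 with higher (3.80%) and 188 with lower levels (4.27%) after nuclear transfer. Counts of list members below are to be read beside these shares. At the level of probes, unnamed ones included, 598 of 7992 passed (7.48%). The called rises had a median of 0.61 and the called falls a median of -0.53, and 16 rises and 17 falls reached 2-fold. Single embryos overlapped in nearly all genes. In 134 of the 355 called genes every NT embryo lay on the called side of the AI mean, but in only 2 of all genes (0.0455%) did NT and AI values not overlap. As deposited all 167 rises kept their call, while 19 of the 188 falls did, and 37 of the falls turned in direction. The deposited values put differences about 0.41 higher, so that rises keep and falls lose calls largely by this shift. A rise kept as deposited is therefore no further support for it.

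**Figure D1:**
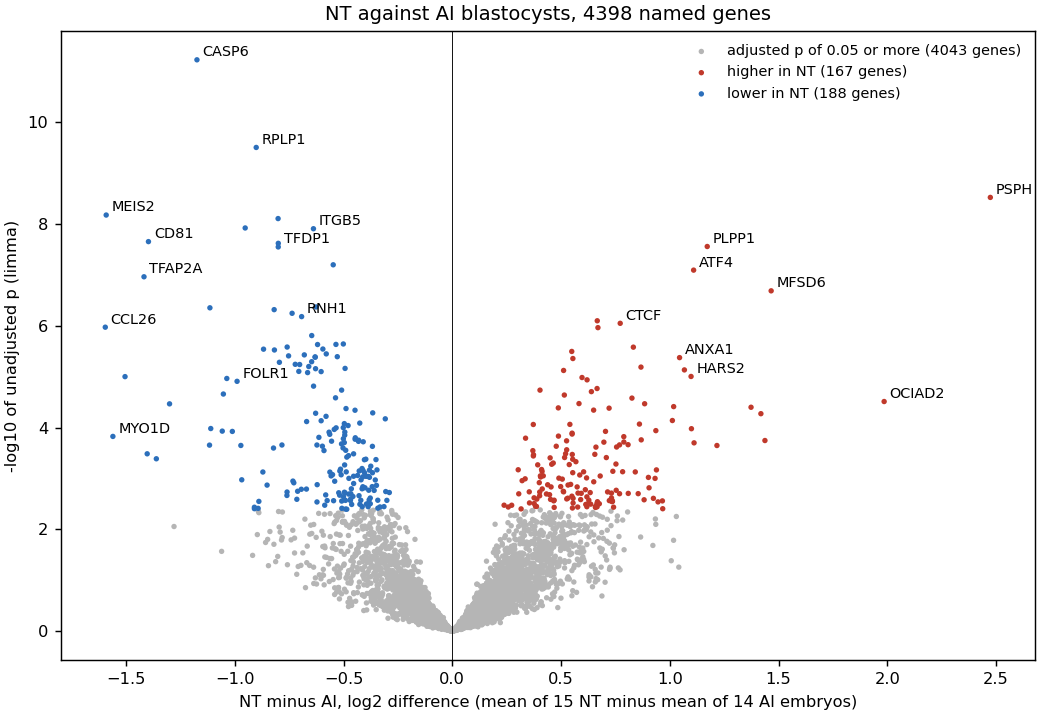
Each point is 1 of 4398 named genes, with the log2 difference of NT (15 embryos) minus AI (14 embryos) on the x axis and -log10 of the unadjusted limma p on the y axis. The 167 genes higher in NT embryos are red, the 188 lower are blue and the 4043 others are grey, and PSPH stands furthest to the right and CASP6 highest.

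Both genes without overlap were lower in NT embryos. CASP6 encodes an executioner caspase, a protease that cleaves cell proteins in apoptosis. Its level had a lowest, median and highest value of 1.21, 1.88 and 2.61 in NT embryos and 2.70, 3.07 and 3.33 in AI embryos. Every NT embryo was thus below every AI embryo, and AI embryos were the narrower group. The difference was -1.17 ± 0.13 (adjusted p = 2.64e-08), which is 2.26-fold higher in AI embryos, and the 2 probes of the gene gave -1.17 ± 0.14 and -1.18 ± 0.14. IVF embryos had a median of 1.77 and overlapped the NT embryos.

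RNH1, the cytosolic ribonuclease inhibitor, ran from -1.47 through a median of -0.48 to -0.25 in NT embryos and from -0.15 through 0.12 to 0.50 in AI embryos (difference -0.69 ± 0.12, adjusted p = 0.000146). The highest NT embryo lay just under the lowest AI embryo. The 2 probes of RNH1 disagreed, with -1.58 ± 0.20 (adjusted p over probes 4.10e-07) and 0.20 ± 0.10 (adjusted p over probes 0.238), so that the fall rests on 1 of them, and its call ended as deposited (-0.28). In LOC524507, a locus without a gene name, 14 of 15 NT embryos were below all AI embryos (-0.80 ± 0.12, adjusted p = 1.14e-05; -0.39 and no call as deposited).

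**Figure D2:**
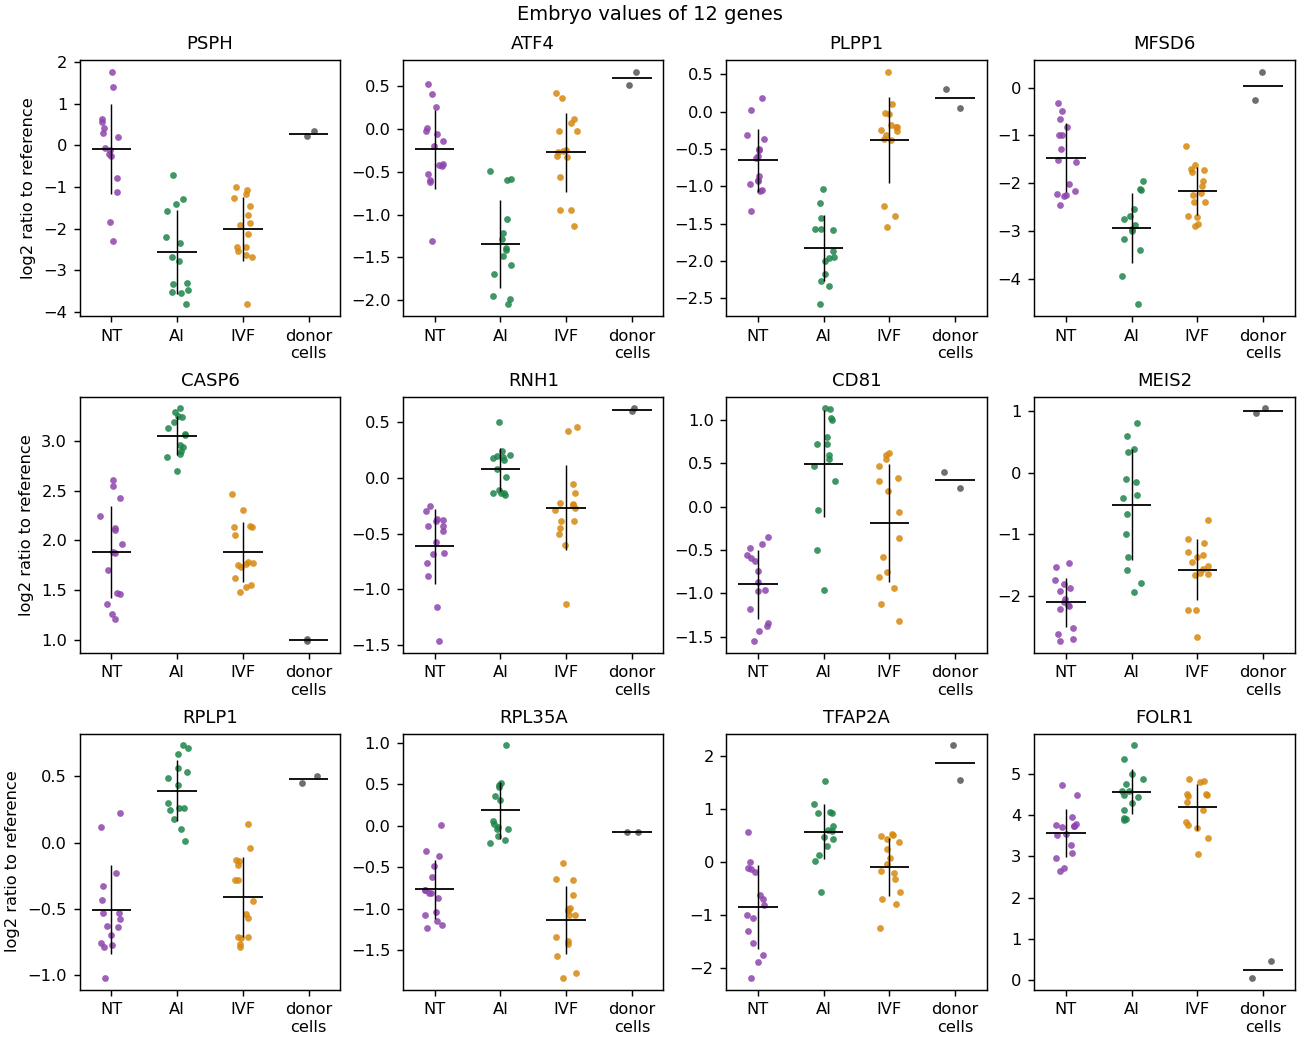
Log2 ratio to the reference of each embryo and donor cell sample for 12 genes, by kind of sample (15 NT, 14 AI and 15 IVF embryos and 2 donor cell samples; genes missing a value have fewer points). Horizontal bars are means and vertical bars SDs of the embryo groups. The means of PSPH, ATF4, PLPP1 and MFSD6 lie above those of AI embryos and the means of the other 8 genes below, and CASP6 and RNH1 show no overlap of NT and AI embryos.

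Genes of the amino acid response and of serine synthesis made up the list with the largest share of rises. Of 20 measured members 8 rose (40.0%, against 3.80% of all genes) and 0 fell, and 17 of 20 had a difference above 0. The gene lists were chosen with earlier results of these data known, so that these shares are no independent support. The list median was 0.30 against 0.03 over all genes. The mean of the list per embryo ran from -0.35 to 0.44 in NT embryos (median 0.12) and from -0.49 to -0.09 in AI embryos (median -0.36), so that the groups overlapped.

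PSPH, which removes phosphate from phosphoserine to give serine, had values of -2.29, -0.06 and 1.77 (lowest, median, highest) in NT and -3.81, -2.73 and -0.70 in AI embryos. NT embryos spread widely, yet 11 of 15 exceeded the highest AI embryo and all 15 exceeded the AI mean. The difference of 2.47 ± 0.34 (adjusted p = 4.44e-06) is 5.56-fold. IVF embryos were at a median of -1.90, with a difference of 0.57 from AI embryos and of 1.91 in NT minus IVF. ATF4, the transcription factor of the response, ran from -1.31 through -0.20 to 0.53 in NT and from -2.05 through -1.41 to -0.49 in AI embryos. Here 11 of 15 NT embryos exceeded every AI embryo, and the lowest NT embryo lay within the AI range. ATF4 rose by 1.11 ± 0.17 (adjusted p = 2.74e-05), and IVF embryos, which share the AI embryos as their control, differed from AI embryos by 1.07.

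The amino acid carrier subunit SLC3A2, the heavy chain of several exchangers at the cell surface, rose by 0.60 ± 0.12 (adjusted p = 0.000791), with 10 of 15 NT embryos above every AI embryo. EIF2AK4 (GCN2), the kinase that senses uncharged tRNA, rose by 0.71 ± 0.19 (adjusted p = 0.0108), but was at 0.33 without a call with the NT embryos labelled 2_ alone and lost its call in Cy5 arrays alone (0.61). SHMT2, the mitochondrial enzyme that turns serine into glycine, rose by 0.57 ± 0.15 (adjusted p = 0.0124). DDIT4, a stress-induced inhibitor of mTOR signalling, rose by 0.79 ± 0.19 (adjusted p = 0.00589), although its 3 probes gave 1.07, 0.11 and 1.16. The stress transcription factors ATF3 (0.59 ± 0.18, adjusted p = 0.0328) and DDIT3 (0.63 ± 0.20, adjusted p = 0.0396) rose too. For ATF3 the 3 probes gave 1.52, 0.34 and -0.08, so that 1 probe carries the rise, and leaving out any of 7 single embryos ended its call (adjusted p of up to 0.0670). The call of DDIT3 was ended by leaving out any of 10 (adjusted p of up to 0.0699).

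Not all of the response passed the threshold. DDIT3 and the genes of this paragraph were chosen after their values were seen. SESN2, a further target of ATF4, was at 0.65 ± 0.22 (adjusted p = 0.0552). TRIB3, which is induced by ATF4 and holds it back, was at 0.12 ± 0.18, and MTHFD2, the mitochondrial folate enzyme, at 0.32 ± 0.23. CEBPB, a transcription factor that partners ATF4, was at -0.29 ± 0.16, and EIF2S1, the initiation factor subunit whose phosphorylation starts the response, at 0.05 ± 0.15. The differences of the 20 genes in the plot of the amino acid response spread from -0.29 to 2.47.

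**Figure D3:**
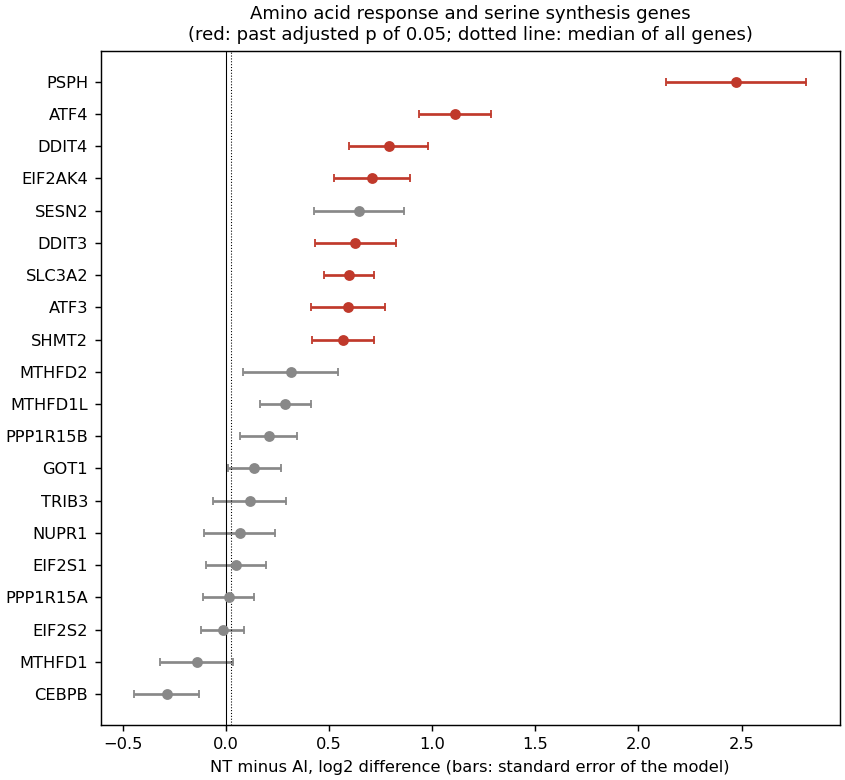
Log2 difference of NT minus AI embryos (x axis, bars are SE of the model) for the 20 measured genes of the amino acid response and serine synthesis, with genes past an adjusted p of 0.05 in red. The 8 red genes lie between 0.57 and 2.47, and the dotted line is the median of all genes (0.03).

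Of 17 aminoacyl-tRNA synthetases, the enzymes that load tRNAs with amino acids, 3 rose (17.6%, against 3.80% of all genes) and 0 fell. HARS2, the mitochondrial histidyl enzyme, had values of -0.10, 0.76 and 1.34 in NT and -1.66, -0.27 and 0.70 in AI embryos (lowest, median, highest). In 8 of 15 NT embryos it was above all AI embryos, and the others overlapped with them. The difference was 1.10 ± 0.22 (adjusted p = 0.000773). SARS1, the cytosolic seryl enzyme, rose by 0.83 ± 0.16 (adjusted p = 0.000387), and YARS1, the tyrosyl enzyme, by 0.79 ± 0.19 (adjusted p = 0.00672). In IVF embryos these genes were at -0.21, -0.21 and -0.25 against the same AI embryos. The list as a whole had a median of -0.11, and 9 of 17 differences lay below 0.

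Translation factors were called in both directions, 3 higher and 2 lower of 38 (13.2%, against 8.07% of all genes), with EIF2AK4 counted here too. EIF4B, a cofactor of the helicase that unwinds messenger RNA, rose by 0.64 ± 0.13 (adjusted p = 0.00132; 0.37 and no call in Cy5 arrays alone). EIF2B1, a subunit of the exchange factor on which the stress response acts, rose by 0.43 ± 0.13 (adjusted p = 0.0330), a call that any of 7 embryos ended when left out (adjusted p of up to 0.0635). The elongation factor subunit EEF1B2 fell by 0.47 ± 0.14 (adjusted p = 0.0329) and EIF3CL by 0.38 ± 0.12 (adjusted p = 0.0306). Leaving out any of 7 embryos for EEF1B2 and of 5 for EIF3CL ended these calls, with adjusted p of up to 0.0639 and 0.0539, and EIF3CL was at 0.03 as deposited.

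Below the largest changes, the rises ranked 11 to 30 by size spanned 0.86 to 1.10. They kept their call as deposited in 20 of 20 genes, which the shift of 0.41 favours. In Cy5 arrays alone 18 kept it, but in Cy3 arrays alone 8. PIP5K1A, a lipid kinase of phosphoinositide synthesis, rose by 1.10 ± 0.26 (adjusted p = 0.00469). WNK1, a kinase that controls ion cotransport, had values of -0.22, 0.85 and 1.13 in NT and -1.29, -0.56 and 0.73 in AI embryos. In 8 of 15 NT embryos WNK1 exceeded all AI embryos (1.07 ± 0.21, adjusted p = 0.000638). ANXA1, a phospholipid-binding annexin, ran from -1.19 through -0.70 to 0.46 in NT and from -2.58 through -1.63 to -0.53 in AI embryos, and all 15 NT embryos were above the AI mean. Its 2 probes rose by 1.49 ± 0.29 and 0.72 ± 0.20, and the gene by 1.04 ± 0.20 (adjusted p = 0.000455).

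Adhesion proteins among these rises were the integrin subunit ITGAD (0.87 ± 0.17, adjusted p = 0.000597), the immunoglobulin superfamily members KIRREL3 (0.88 ± 0.19) and JAM3 (0.90 ± 0.27), of which JAM3 lost its call without embryo NT 2_9 or without embryo NT 3_4 (adjusted p of up to 0.0540). AGA, a lysosomal amidase of glycoprotein breakdown, rose by 1.02 ± 0.22 (adjusted p = 0.00228), and THTPA, a thiamine triphosphatase, by 1.01 ± 0.23 (adjusted p = 0.00368). RMDN3, which tethers mitochondria to the endoplasmic reticulum, rose by 0.86 ± 0.20. Each of these 3 genes was above the AI mean in 14 or 15 of 15 NT embryos. NDRG1, a gene induced by hypoxia and stress, rose by 0.94 ± 0.22 with 10 of 15 NT embryos above every AI embryo. Regulators of transcription in this range were CRTC3, a coactivator of CREB (0.93 ± 0.27), LYL1, a helix-loop-helix factor (0.87 ± 0.21), and TRIP4, a subunit of a transcription coactivator (0.90 ± 0.26).

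The remaining rises of this range were less stable, apart from FAM169A (0.94 ± 0.26), which kept its call without any single embryo. ABCG2, an efflux transporter, was at 0.97 ± 0.32 (adjusted p = 0.0492), PES1, a factor of ribosome assembly, at 0.97 ± 0.31, and the importin IPO7 at 0.88 ± 0.28. FILIP1L was at 0.95 ± 0.30 and WDR54 at 0.92 ± 0.29 (14 NT and 12 AI embryos). Leaving out single embryos ended the call of ABCG2 in 20 of 29 fits, of PES1 in 17, of FILIP1L in 16, of IPO7 in 14 and of WDR54 in 9, with adjusted p of up to 0.0833.

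Falls ranked 11 to 30 spanned 0.82 to 1.12 in size, and 8 of the 20 kept their call as deposited. Transport and uptake genes were among them. SLC1A3, a glutamate transporter, had values of -3.33, -2.40 and -1.34 in NT and -2.58, -1.33 and -0.49 in AI embryos. The groups overlapped widely, but every NT embryo was below the AI mean (-1.04 ± 0.21, adjusted p = 0.000811). FOLR1, the folate receptor, was among the strongest signals of the embryos against the reference, with 2.66, 3.71 and 4.72 in NT and 3.89, 4.53 and 5.70 in AI embryos. In 12 of 15 NT embryos it lay below all AI embryos, and 1 NT embryo lay above the AI mean. FOLR1 fell by 0.99 ± 0.20 (adjusted p = 0.000894) and kept its call as deposited (-0.58) but not in Cy3 arrays alone (-0.92). The sulfate transporter SLC26A2 was called at -0.89 ± 0.28 (12 NT and 14 AI embryos, adjusted p = 0.0402), but it was at 0.74 in Cy5 arrays alone, and leaving out any of 17 embryos ended the call (adjusted p of up to 0.0721).

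Enzymes and signalling proteins fell as well. GMPR, an enzyme of purine interconversion, ran from -0.11 through 0.59 to 1.06 in NT and from 0.42 through 1.56 to 2.78 in AI embryos, and 12 of 14 AI embryos were above all NT embryos. It fell by 1.11 ± 0.19 (adjusted p = 0.000115), also as deposited and in either dye alone. IP6K2, a kinase of inositol phosphates, fell by 1.05 ± 0.22 (adjusted p = 0.00145), and DUSP6, the phosphatase that switches off ERK kinases and is itself induced by them, by 0.97 ± 0.24 (adjusted p = 0.00725). The 4 probes of DUSP6 gave -1.43, -1.15, -0.84 and -0.47. FBXO32, a subunit of a ubiquitin ligase, fell by 1.06 ± 0.25 (adjusted p = 0.00505), and CPNE3, a calcium-dependent membrane protein, by 1.12 ± 0.28. PPIC, a prolyl isomerase, fell by 0.85 ± 0.25 (adjusted p = 0.0259; 0.0509 without AI embryo 13). COTL1, an actin-binding protein, fell by 0.87 ± 0.16 (adjusted p = 0.000398), and CAV1, the coat protein of caveolae, by 0.87 ± 0.24 (adjusted p = 0.0173).

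Also within these ranks were SH3YL1 (-1.01 ± 0.24) and the loci LOC281964 (-1.11 ± 0.26) and MGC127133 (-0.97 ± 0.28). KCTD3 (-0.89 ± 0.29), PRADC1 (-0.91 ± 0.30) and MYLIP (-0.91 ± 0.30), a ubiquitin ligase, were called at adjusted p of 0.0487, 0.0492 and 0.0471. Each of these 3 calls ended when any of 18 to 21 single embryos was left out, with adjusted p of up to 0.0950.

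Of 46 cytosolic ribosomal protein genes, 25 fell (54.3%, against 4.27% of all genes) and 0 rose, and 44 of 46 had a difference below 0. One of these 25 is RACK1, a scaffold bound to the ribosome, which was counted with the list. This list too was chosen with earlier results of these data known. The list mean ran from -1.02 to -0.48 in NT embryos (median -0.82), from -0.68 to -0.01 in AI embryos (median -0.49) and from -1.11 to -0.60 in IVF embryos (median -0.81). NT and IVF embryos covered nearly the same range, and AI embryos reached higher. The median difference of the list was -0.40, against 0.01 as deposited, where 2 members rose and 2 fell.

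RPLP1, an acidic protein of the stalk of the large subunit, had values of -1.02, -0.58 and 0.22 in NT and 0.01, 0.37 and 0.74 in AI embryos. All but 2 NT embryos lay below all AI embryos. It fell by 0.90 ± 0.11 (adjusted p = 6.95e-07) and by 0.49 as deposited, with a call. RPL35A, of the large subunit, ran from -1.24 through -0.81 to 0.00 in NT and from -0.20 through 0.04 to 0.97 in AI embryos, and 14 of 15 NT embryos were below every AI embryo. It fell by 0.95 ± 0.14 (adjusted p = 7.83e-06) and by 0.54 as deposited, with a call. RPS18, of the small subunit, fell by 0.82 ± 0.14 (adjusted p = 0.000118) and was at -0.41 without a call as deposited. The differences of RPLP1, RPL35A and RPS18 in IVF minus AI embryos were -0.81, -1.33 and -0.48. Probes disagreed for RPL15 (0.13 ± 0.11 and -1.02 ± 0.18) and for RACK1 (-0.16, -0.72 and -0.73). RPL39 (0.05 ± 0.15) and RPS9 (0.04 ± 0.15) were the members with a difference above 0.

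**Figure D4:**
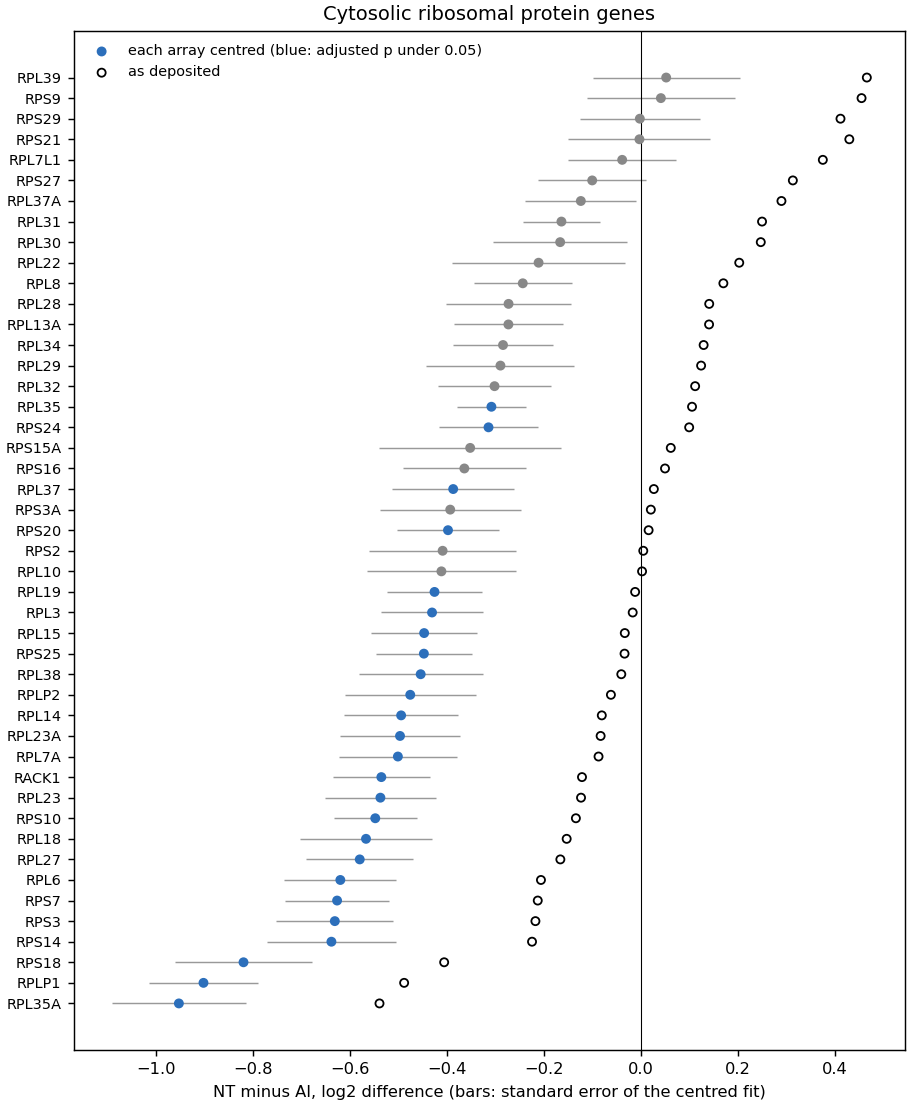
Log2 difference of NT minus AI embryos for 46 cytosolic ribosomal protein genes, ordered by size. Filled points are centred values with SE bars, blue past an adjusted p of 0.05, and open points are the same genes as deposited. The centred values run from -0.95 to 0.05, and the open points lie 0.41 higher, on both sides of 0.

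Of 39 ribosome assembly factors 3 rose (7.69%, against 3.80% of all genes) and 0 fell (against 4.27% of all genes), with a median of -0.03. A list this small can hold 0 falls at the share of all genes, which was not tested. The 3 were POLR1H, a subunit of RNA polymerase I (1.22 ± 0.30), UTP11, of the small subunit processome (0.41 ± 0.11), and PES1. The call of PES1 ended in 17 of 29 fits with 1 embryo left out. Mitochondrial ribosomal proteins gave 3 falls and 0 rises among 40 genes (7.50%, against falls in 4.27% of all genes). These were MRPS11 (-0.67 ± 0.15, adjusted p = 0.00378), MRPL33 (-0.35 ± 0.10) and MRPS6 (-0.50 ± 0.15), and leaving out any of 9 embryos ended the call of MRPS6 (adjusted p of up to 0.0624). MRPL33 was at 0.07 as deposited.

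Among genes of mitochondrial import, TOMM20, a receptor of the outer membrane translocase, had values of 0.17, 0.63 and 1.13 in NT and 0.63, 1.24 and 1.48 in AI embryos. All 15 NT embryos were below the AI mean (-0.49 ± 0.10, adjusted p = 0.000616). TOMM7, a small subunit of the same complex, fell by 0.58 ± 0.13 (adjusted p = 0.00313) and TIMM23, the channel of the inner membrane, by 0.35 ± 0.09 (adjusted p = 0.0115). None of the 3 kept its call as deposited, and TIMM23 was at 0.06 there. In all, 3 of 26 genes of import, proteases and assembly fell and 1 rose (15.4%, against 8.07% of all genes). The rise was in MTERF2, a mitochondrial transcription factor (1.37 ± 0.30, adjusted p = 0.00232). Of 47 genes of the respiratory chain and ATP synthase 3 fell (6.38%, against 4.27% of all genes) and 0 rose. The 3 are subunits of complex I, NDUFA8 (-0.49 ± 0.11), NDUFC2 (-0.60 ± 0.14) and NDUFS5 (-0.50 ± 0.13). The list medians of import and of the respiratory chain were -0.06 and -0.13. In the tricarboxylic acid cycle 1 of 16 genes rose (6.25%, against 3.80% of all genes). This was SUCLG2, a subunit of a succinyl-CoA ligase (0.45 ± 0.14), a call that any of 9 embryos ended when left out (adjusted p of up to 0.0713).

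Several sugar-metabolising enzymes were called lower. Of 17 genes of glycolysis and glucose uptake 5 fell (29.4%, against 4.27% of all genes) and 0 rose, and the list median was -0.06. TPI1, the triose isomerase, had values of -0.41, 0.14 and 0.85 in NT and 0.11, 0.83 and 1.28 in AI embryos, with 14 of 15 NT embryos below the AI mean (-0.63 ± 0.12, adjusted p = 0.000616). PGAM1, the phosphoglycerate mutase, ran from -0.04 through 0.63 to 1.08 in NT and from 0.47 through 1.13 to 1.72 in AI embryos. It fell by 0.60 ± 0.12 (adjusted p = 0.000650), and its 3 probes gave -0.52, -0.75 and -0.55. Aldolase ALDOA (-0.56 ± 0.14) and transketolase TKT, of the pentose phosphate pathway (-0.56 ± 0.16), fell too. Enolase ENO1 (-0.62 ± 0.18, adjusted p = 0.0257) lost its call without AI embryo 7 (adjusted p = 0.0545). As deposited 0 of the 17 fell and 5 rose, with a median of 0.41 against 0.44 over all genes.

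In lipid synthesis 1 gene of 18 rose and 2 fell (16.7%, against 8.07% of all genes). PLPP1, a phosphatase of lipid phosphates at the cell surface, had values of -1.33, -0.61 and 0.18 in NT and -2.58, -1.91 and -1.04 in AI embryos, so that 12 of 15 NT embryos were above all AI embryos. It rose by 1.17 ± 0.18 (adjusted p = 1.14e-05), also in either dye alone. It rose as deposited too, which the shift favours, and IVF embryos differed from AI embryos by 1.44. The sterol isomerase EBP (-0.67 ± 0.20; adjusted p = 0.0604 without AI embryo 7) and the acyl-CoA synthetase ACSL1 (-0.69 ± 0.21) were called lower. Any of 5 embryos ended the call of ACSL1 (adjusted p of up to 0.0523).

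Redox genes were called in both directions, 6 higher and 5 lower of 39 (28.2%, against 8.07% of all genes), with a median of -0.02. GPX8, a peroxidase of the endoplasmic reticulum, had values of -3.64, -3.18 and -2.94 in NT and -4.26, -3.80 and -3.34 in AI embryos. In 10 of 15 NT embryos it exceeded all AI embryos (0.55 ± 0.11, adjusted p = 0.000463). CCS, the copper chaperone of SOD1, rose by 0.45 ± 0.12 and SOD1, the cytosolic superoxide dismutase, by 0.60 ± 0.17 (adjusted p of 0.0109 and 0.0173). CCS was at 0.88 in Cy5 arrays alone and at 0.02, without a call, in Cy3 arrays alone. The peroxiredoxin PRDX2 fell by 0.51 ± 0.11 (adjusted p = 0.00125), the mitochondrial dismutase SOD2 by 0.50 ± 0.13, and GPX4, which reduces lipid peroxides, by 0.37 ± 0.11 (adjusted p = 0.0274; 0.0518 without AI embryo 13). None of PRDX2, SOD2 and GPX4 kept its call as deposited.

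Among chromatin genes 3 of 72 rose and 1 fell (5.56%, against 8.07% of all genes). CTCF, which organises chromatin loops, ran from -0.57 through 0.00 to 0.57 in NT and from -1.77 through -0.65 to -0.21 in AI embryos, and 9 of 15 NT embryos were above all AI embryos (0.77 ± 0.14, adjusted p = 0.000180). CHD4, the ATPase of the NuRD complex, rose by 0.67 ± 0.12 (adjusted p = 0.000200), and its 2 probes gave 0.65 and 0.69. INO80, a nucleosome remodeller (0.61 ± 0.20, adjusted p = 0.0436), lost its call in 17 of 29 fits with 1 embryo left out (adjusted p of up to 0.0849). HMGA1, an architectural protein of AT-rich DNA, fell by 0.82 ± 0.21 (adjusted p = 0.00773) and was at 0.38 in IVF minus AI embryos. Of 11 histone genes and variants 0 passed the threshold in limma, and the list median was -0.03.

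In the cell cycle list 1 of 37 genes rose and 2 fell (8.11%, against 8.07% of all genes). TFDP1, the partner of E2F factors in driving replication genes, had values of -0.69, -0.22 and 0.38 in NT and -0.04, 0.50 and 1.12 in AI embryos. In 13 of 15 NT embryos it was below all AI embryos (-0.80 ± 0.12, adjusted p = 1.14e-05), and IVF embryos were at -0.92 against AI embryos. SPC24, of the kinetochore, fell by 0.70 ± 0.14 (adjusted p = 0.000554). The checkpoint protein BUB3 was called at 0.32 ± 0.10 (adjusted p = 0.0494), and any of 19 embryos ended that call (adjusted p of up to 0.0954). PARP1 (0.74 ± 0.24) and the thymine glycosylase TDG (-0.76 ± 0.23) were called among 30 genes of replication and repair (6.67%, against 8.07% of all genes). Any of 19 embryos for PARP1 and of 10 for TDG ended these calls, with adjusted p of up to 0.0834 and 0.0621.

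Of 77 splicing genes 5 were called lower and 1 higher (7.79%, against 8.07% of all genes), with 39 differences above and 38 below 0. SF3B5, a subunit of the U2 particle, fell by 0.66 ± 0.13 (adjusted p = 0.000593), and RBM47, an RNA-binding protein of epithelia, by 0.53 ± 0.13 (adjusted p = 0.00460). HNRNPC (-0.59 ± 0.19), LSM8 (-0.47 ± 0.15), RBM45 (-0.49 ± 0.16) and RBM38 (0.47 ± 0.15) lost their calls in 14 to 21 of the 29 fits with 1 embryo left out, with adjusted p of up to 0.0977. Of 58 RNA polymerase subunits and general factors, POLR1H and CDK9, the kinase that releases paused polymerase (0.40 ± 0.12, adjusted p = 0.0319; up to 0.0576 without any of 4 embryos), rose. SNAPC2, of the complex that starts snRNA genes, fell by 1.36 ± 0.35 (12 NT and 13 AI embryos, adjusted p = 0.0112). The called share of these 58 genes was 5.17%, against 8.07% of all genes.

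In the centred values trophectoderm genes were called in 1 direction, 6 lower and 0 higher of 47, with a median of -0.08. The called share was 12.8%, against 4.27% called lower and 8.07% called either way of all genes. As deposited 14 of the 47 rose and 2 fell, with a median of 0.34 against 0.44 over all genes. The mean of the list ran from 0.67 to 1.30 in NT embryos (median 1.04), from 0.96 to 1.45 in AI embryos (median 1.21) and from -0.28 to -0.24 in donor cells. Both kinds of embryo were thus above the donor cells in every sample. TFAP2A, a transcription factor of the early trophoblast, had values of -2.18, -0.80 and 0.56 in NT and -0.56, 0.59 and 1.53 in AI embryos, and in 10 of 15 NT embryos it was below all AI embryos. It fell by 1.42 ± 0.23 (adjusted p = 3.44e-05). The 2 donor cell samples, at 1.54 and 2.20, were higher than every embryo, the lower of them only just (highest AI embryo 1.53). SSLP1, counted in this list, fell by 1.40 ± 0.36 (adjusted p = 0.00958), also as deposited. ID2, an inhibitor of helix-loop-helix factors, fell by 0.46 ± 0.14 and the tight junction protein OCLN by 0.34 ± 0.11 (adjusted p of 0.0358 and 0.0396). Both calls ended when single embryos were left out, in 9 and 14 of 29 fits (adjusted p of up to 0.0610 and 0.0718), and OCLN was at 0.07 as deposited. The pregnancy-associated glycoprotein PAG11 (-0.62 ± 0.20) lost its call in 15 of these fits (adjusted p of up to 0.0745), and PAG8 (-0.39 ± 0.11) was at 0.03 as deposited.

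The label of a blastocyst was checked against defining genes. KRT8 averaged 1.62 ± 0.39 (SD, n = 15) in NT and 1.97 ± 0.32 (SD, n = 14) in AI embryos, against -3.80 in donor cells. KRT18 (2.16 and 2.50) and KRT19 (1.94 and 2.39) were likewise high in both kinds of embryo, as was TFAP2C (2.80 and 3.00), and these 4 genes did not pass the threshold (adjusted p of 0.121, 0.188, 0.0585 and 0.477). The 5th defining gene measured, TFAP2A, did not follow, with -0.84 in NT and 0.57 in AI embryos against 1.87 in donor cells, and it differed between NT and AI embryos (adjusted p = 3.44e-05). CDX2, IFNT, POU5F1, NANOG and SOX2 were not among the genes analysed here, so that inner cell mass identity was not checked by its defining genes. Of 5 pluripotency genes measured, KLF4 among them (0.28 ± 0.18), 0 passed. In the primitive endoderm list of 13 genes the laminin chain LAMB1 (0.66 ± 0.17, adjusted p = 0.00752) and SPARC (0.74 ± 0.20, adjusted p = 0.0173), both of basement membranes, rose. The collagen chain COL4A1 fell (-0.63 ± 0.14, adjusted p = 0.00278), and the list median was -0.05. The called share of this list was 23.1%, against 8.07% of all genes. The 2 probes of COL4A1 gave -1.14 ± 0.23 and -0.11 ± 0.15, so that the fall rests on 1 of them.

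Markers of other cell types were looked at beside these results. Of 30 fibroblast and matrix genes, the kind expected of somatic donor cells, 3 rose and 1 fell (13.3%, against 8.07% of all genes). ANXA1, SPARC and the matrix glycoprotein THBS1 (0.37 ± 0.09) rose, and CAV1 fell. The mean of that list ran from -1.56 to -1.17 in NT and from -1.53 to -1.29 in AI embryos, against 0.50 to 0.51 in donor cells. COL1A2, COL3A1 and VIM averaged -3.80, -5.16 and -4.51 in NT and -3.80, -5.17 and -4.52 in AI embryos, and 1.46, 0.97 and -0.03 in donor cells, so that these 3 defining fibroblast genes were equally low in both kinds of embryo. THY1 (0.96 and 0.90) and FN1 (0.19 and 0.20) were not low in either kind and did not differ past the threshold (adjusted p of 0.785 and 0.973), and COL1A1 was not analysed here. Of 5 cumulus, 13 blood and immune, 4 oviduct and endometrium and 2 oocyte genes, 0 passed the threshold. Their list means had medians of -0.94, -0.92, -0.20 and 0.41 in NT and -1.01, -0.91, -0.40 and 0.39 in AI embryos. HBA, HBB, PTPRC, HAS2, PTX3 and FSHR were not among the genes analysed here, and the part of other cells in the results was not tested.

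Of 84 genes of the cytoskeleton 7 were called lower and 0 higher, with 44 differences above 0 and a list median of 0.02. The called share was 8.33%, against 4.27% called lower and 8.07% called either way of all genes. As deposited 35 of the 84 rose and 1 fell. MYH11, a myosin heavy chain, had values of -1.32, -0.78 and -0.34 in NT and -0.58, 0.02 and 0.70 in AI embryos, and in 12 of 15 NT embryos it was below all AI embryos (-0.75 ± 0.14, adjusted p = 0.000455). ACTN1, an actin crosslinker, fell by 0.71 ± 0.14 (adjusted p = 0.000650), and 11 of 15 NT embryos were below all AI embryos. TMSB10, which binds actin monomers, fell by 0.42 ± 0.11, and DYNLRB1, a dynein light chain, by 0.37 ± 0.10. TBCB, a tubulin folding cofactor (-0.49 ± 0.15), lost its call in 7 of 29 fits (adjusted p of up to 0.0586). The other 2 were MYO1D, an unconventional myosin (-1.56 ± 0.38), and MYLIP, which is a ubiquitin ligase that the symbol pattern of the list took in. ACTN1, MYH11, TMSB10, DYNLRB1 and TBCB lost their calls as deposited.

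Matrix and adhesion genes were called in both directions, 6 higher and 3 lower of 50 (18.0%, against 8.07% of all genes). ITGB5, an integrin subunit, had values of -1.26, -0.93 and -0.51 in NT and -0.92, -0.21 and 0.21 in AI embryos, and 12 of 14 AI embryos were above all NT embryos (-0.64 ± 0.09, adjusted p = 7.83e-06; -0.23 without a call as deposited). MMP23, a membrane-bound metalloprotease, rose by 0.58 ± 0.13 (adjusted p = 0.00204). In trafficking 6 of 119 genes rose and 5 fell (9.24%), near the share of all genes. TMED4, a cargo receptor of the early secretory pathway, rose by 0.49 ± 0.12 and the endosomal GTPase RHOB by 0.62 ± 0.18. The sorting nexins SNX2 (-0.62 ± 0.16) and SNX10 (-0.73 ± 0.21) and the GTPase RAC1 (-0.44 ± 0.12) fell, of which RAC1 had 3 probes at -0.12, -0.66 and -0.52. Of 45 lysosome genes 2 rose and 4 fell (13.3%, against 8.07% of all genes). The protease CTSD rose by 0.55 ± 0.13 (adjusted p = 0.00531) and the protease CTSH fell by 0.59 ± 0.15 (adjusted p = 0.00847). CTSD was at 0.97 in Cy5 arrays alone and at 0.13, without a call, in Cy3 arrays alone.

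Of 55 complement and innate immune genes 5 fell and 1 rose (10.9%, against 8.07% of all genes). CD81, a tetraspanin that also belongs to the imprinted list, had values of -1.55, -0.87 and -0.35 in NT and -0.96, 0.66 and 1.14 in AI embryos. AI embryos spread widely and 2 of them lay within the NT range, but the other 12 of 14 were above all NT embryos (-1.40 ± 0.21, adjusted p = 1.14e-05). RELA, a subunit of NF-kappaB, fell by 0.37 ± 0.09 and C4A by 0.35 ± 0.10, and both were near 0 as deposited (0.05 and 0.06). CCL26, a chemokine, fell by 1.60 ± 0.28 (adjusted p = 0.000200) and IFI30, a lysosomal thiol reductase of antigen processing, fell from a median of 0.71 in AI to -0.79 in NT embryos (adjusted p = 0.000773). IFI30 was at 0.52 in IVF minus AI embryos. Among caspases and regulators of apoptosis, 23 genes, the called share was 13.0%, against 8.07% of all genes. CASP6 and AVEN, an inhibitor of apoptosis (-0.60 ± 0.15), fell, and CFLAR, which blocks caspase 8 at death receptors, rose (0.65 ± 0.14, adjusted p = 0.00249). The 2 probes of CFLAR gave 0.01 ± 0.10 and 1.29 ± 0.26.

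MEIS2, a homeobox factor, had values of -2.74, -2.10 and -1.46 in NT and -1.94, -0.38 and 0.82 in AI embryos, with all NT embryos below the AI mean and 11 of 14 AI embryos above all NT embryos. It fell by 1.59 ± 0.23 (adjusted p = 6.93e-06), 3.01-fold, and IVF embryos differed from AI embryos by -1.06. Of 46 developmental transcription factors 3 fell and 1 rose (8.70%, against 8.07% of all genes). MEIS2, TFAP2A and ID2 fell. ELF1 rose (0.68 ± 0.22, adjusted p = 0.0431), a call that ended in 20 of 29 fits (adjusted p of up to 0.0787). In signalling 4 of 78 genes rose and 3 fell (8.97%, against 8.07% of all genes). DUSP1, an immediate early phosphatase, rose by 0.54 ± 0.14, and DKK3, a secreted protein of the Dickkopf family, by 0.37 ± 0.10 (0.21 with quantile normalisation and 0.24 with a common spread, both without a call), while the kinase GSK3A fell by 0.41 ± 0.10 and was at 0.00 as deposited.

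Carriers, channels and pumps were called at shares of 9.72% of 72 solute carriers and ABC transporters and 20.0% of 20 pump and channel genes. The share of all genes was 8.07%. SLC11A2, an iron transporter, fell by 0.54 ± 0.13 (adjusted p = 0.00480), and the chloride channel genes CLIC1 (-0.67 ± 0.13, adjusted p = 0.000668) and CLCN3 (-0.56 ± 0.16) fell. KCNK1, a potassium channel, rose by 1.11 ± 0.28. MFSD6, a membrane protein related to transporters that is in no list here, had values of -2.46, -1.52 and -0.33 in NT (15 embryos) and -4.54, -2.87 and -1.96 in 13 AI embryos, and 9 of 15 NT embryos exceeded all AI embryos (1.47 ± 0.24, adjusted p = 6.07e-05). The ubiquitin pathway had few calls against the share of all genes, 2 of 110 (1.82%). In smaller lists 1 of 35 genes of secretion and folding in the endoplasmic reticulum (2.86%) and 1 of 33 keratins and junctions (3.03%) passed. Of 17 genes of steroid, prostaglandin and retinoid metabolism 0 passed. Lists this small can hold so few calls at the share of all genes, which was not tested.

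Of 51 heat shock proteins and chaperonins 1 rose and 2 fell (5.88%), among them HSF1, the transcription factor of the heat shock response (-0.48 ± 0.11, adjusted p = 0.00424; -0.07 as deposited). Of 28 proteasome genes 3 rose and 1 fell (14.3%, against 8.07% of all genes), with the assembly chaperone PSMG1 at 0.48 ± 0.12 and the core subunit PSMA7 at -0.37 ± 0.10, which was at 0.04 as deposited. Of 15 imprinted genes H19, a non-coding RNA expressed from the maternal allele, rose and CD81 fell (13.3%, against 8.07% of all genes). H19 had values of 0.21, 0.63 and 1.49 in NT and -0.40, 0.10 and 0.81 in AI embryos (0.54 ± 0.13, adjusted p = 0.00408), and the groups overlapped widely. SSR2, a subunit of the translocon-associated complex, was the 1 called gene of secretion, with 10 of 15 NT embryos below all AI embryos (-0.53 ± 0.10, adjusted p = 0.000455; -0.12 as deposited). Called shares were 10.0% of 20 N-glycan enzymes (1 higher, 1 lower), 13.0% of 23 nuclear pore genes (2 higher, 1 lower), 7.69% of 26 immediate early genes (2 higher) and 3.13% of 32 genes of messenger RNA decay (1 lower).

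**Figure D5:**
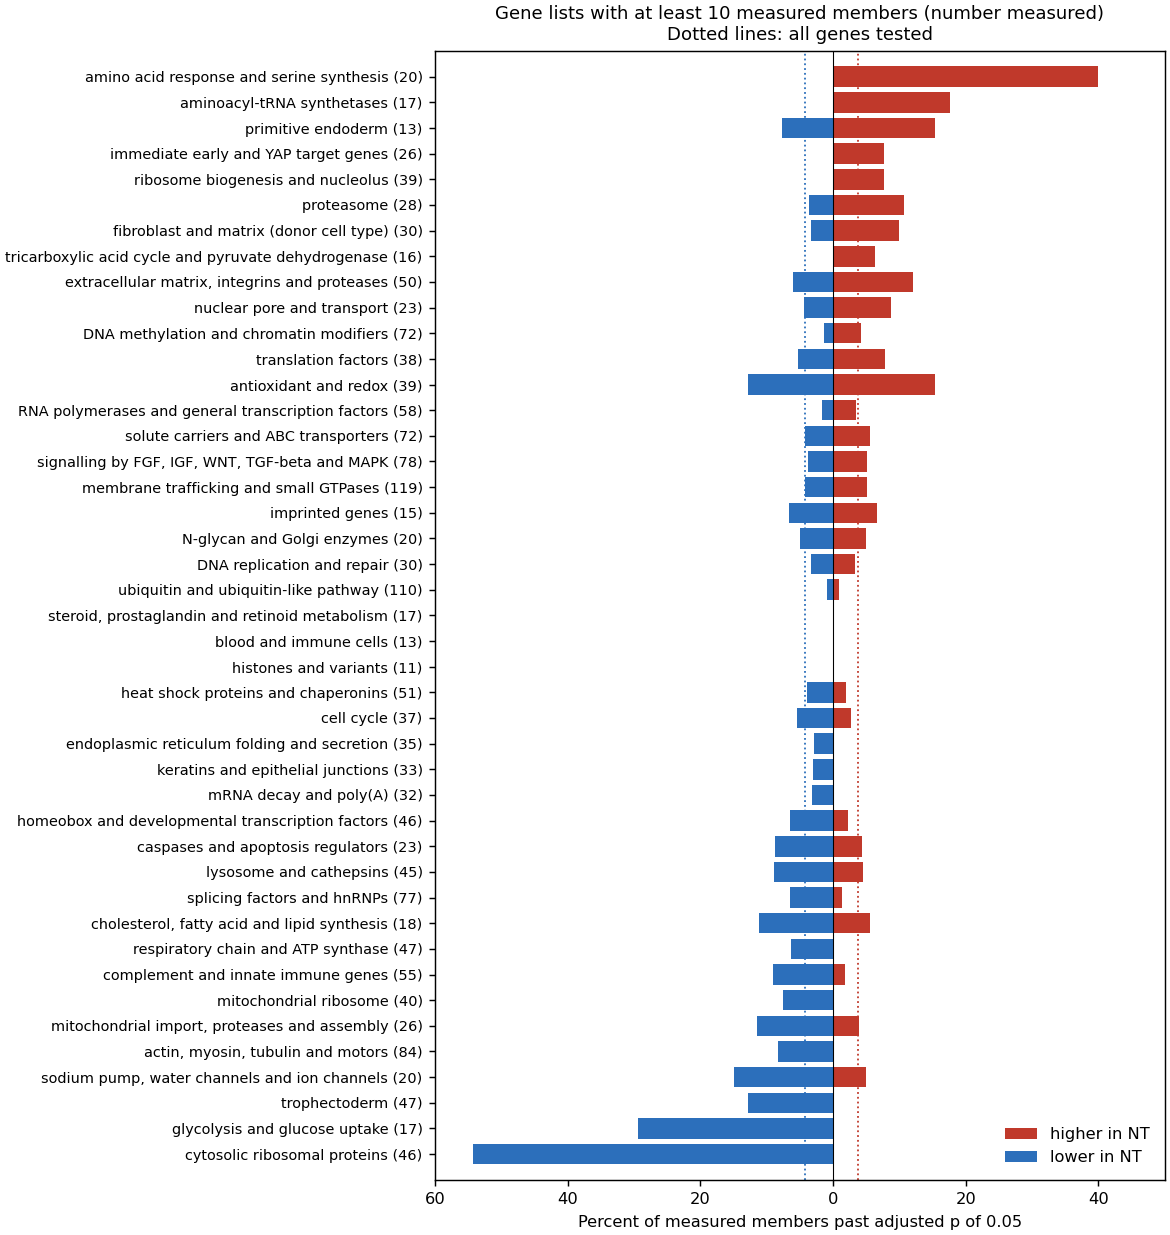
Percent of measured members of each gene list past an adjusted p of 0.05, to the right for genes higher and to the left for genes lower in NT than in AI embryos, with the number measured in brackets and lists of fewer than 10 left out. The dotted lines are the shares of all genes, 3.80% higher and 4.27% lower. The amino acid response (40.0% higher) and the ribosomal proteins (54.3% lower) stand at the ends. The lists were chosen with earlier results of these data known.

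NT embryos labelled 2_ and 3_ were compared with each other, since they are the only subdivision of the NT embryos that the labels give. No gene passed the threshold in limma (0 of 4398), 344 had an unadjusted p under 0.05 (7.82%), and a robust fit gave 23 genes. Against the same 14 AI embryos, the 8 embryos labelled 2_ differed in 170 genes (3.87%) and the 7 labelled 3_ in 214 (4.87%). All 355 called genes had the same sign in both sets, which the choice of the genes on the pooled embryos favours. PSPH was at 2.45 in the first and 2.50 in the second set against AI embryos, and CASP6 at -1.12 and -1.24. The 6 largest gaps among the genes chosen by rule were in OCIAD2 (1.43 and 2.63), TDG (-0.28 and -1.31), PARP1 (1.22 and 0.20), MAN1A2 (1.00 and 1.94), EIF2AK4 (0.33 and 1.14) and PIP5K1A (1.47 and 0.68), and these gaps did not pass the test of the difference.

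Calls depended on single embryos in a minority of genes. With each of the 29 embryos left out in turn, 284 to 370 genes were called, and 230 of the 355 genes kept their call in all 29 fits. The lowest count came without NT embryo 3_4 and the highest without AI embryo H5. Called in Cy5 and in Cy3 arrays taken alone were 100 of the 355 genes. A set of 61 genes, 44 higher and 17 lower in NT embryos, was called in either dye alone, as deposited, with quantile normalisation and with arrays scaled to a common spread. The shift of 0.41 as deposited favours higher genes in this set, and its split by direction follows in part from it. The 17 lower genes of this set were CASP6, CCL26, CD81, GMPR, IFI30, IP6K2, LOC281964, MEIS2, MYO1D, RPL35A, RPLP1, SCAND1, SLC1A3, SNAPC2, SSLP1, TFAP2A and TFDP1. Of 89 called genes with several probes, 83 had all probes in the called direction and 24 had every probe past the threshold. The 6 with a probe against the call were ATF3, FARP1, HMOX2, NUCB1, RNH1 and RPL15.

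Some calls above rest mainly on 1 dye orientation. In Cy3 arrays alone the call ended and the difference shrank by more than 1.5 times in further genes that rose, THBS1 (0.03), MMP23 (0.22), CRTC3 (0.31), DUSP1 (0.34), LYL1 (0.46), KIRREL3 (0.54) and THTPA (0.55). The same held for the mitochondrial genes MRPL33 (-0.08), TIMM23 (-0.10), TOMM20 (-0.21), NDUFS5 (-0.32) and NDUFC2 (-0.35). It also held for GPX4 (-0.09), EIF3CL (-0.10), DYNLRB1 (-0.14), C4A (-0.18), HSF1 (-0.24), SSR2 (-0.26), ID2 (-0.27), PRDX2 (-0.27), EEF1B2 (-0.30), SOD2 (-0.31), RBM47 (-0.32), RACK1 (-0.34), ITGB5 (-0.36) and SPC24 (-0.40). In Cy5 arrays alone it held for AVEN (-0.37) and FILIP1L (0.61). With 1 probe per gene the calls of CFLAR (0.01), RAC1 (-0.12), RACK1 (-0.16), PAG8 (-0.23), SNX10 (-0.24) and TMED4 (0.31) ended. TIMM23 and OCLN were at -0.16 and -0.18 with quantile normalisation and IPO7 at 0.57 without the AI embryos labelled H, each without a call. Their causes were not tested.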

How the data were processed

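Expression was measured in 92 arrays of 46 samples, 2 arrays of opposite dye per sample. Each deposited value is a log2 ratio between both dyes at 1 spot, judged from its range and sign. Per the labels' protocols, RNA was amplified linearly, in 3 rounds for embryos and 2 for the reference. Scanner software, background correction, normalisation and ratio direction are not given in the sources used here, and no intensities were held.

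Values above 16 (2657 cells) were set to missing, 16416 spots were averaged in adjacent pairs into 8208 probes, Cy3-sample arrays were turned in sign, arrays were centred on their median, and both arrays of a sample were averaged where both had a value. Centring was chosen after the array medians had been seen in earlier work on these data. Probes with a value in at least 50% of each embryo group and both donor samples were kept (7992), and probes with 1 symbol in the probe annotation (5507 of these) were averaged into 4398 genes.

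Group means of the 46 samples were fitted with limma 3.58.1 (lmFit, eBayes) in R 4.3.3 with no covariate. NT and IVF comparisons with AI share the AI embryos. Permutation tests of array measures used 100000 resamples. The number of arrays limits the precision, and labels do not say whether embryos came from separate animals or donor lines.

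Members and the 47 gene lists were chosen with earlier results of these data known. Named genes are those of rank 11 to 30 by size in each direction and larger ones whose embryo values are shown, the 15 of smallest p, those without overlap, and up to 6 called members of each list by smallest p (2 of smallest p where none was called); other genes were chosen after their values were seen. Alternatives were values as deposited, quantile normalisation, a common median absolute deviation, either dye alone, 1 probe per gene, stricter and looser filters, NT and AI alone, a robust fit, NT label sets, no AI embryos labelled H, and, added after seeing the data, each embryo left out.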

Additional observations from a re-analysis of the deposited data

How the results depend on the processing

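The 355 called genes became 1997 as deposited (1978 higher, 19 lower), 550 in Cy5 alone (236 and 314), 216 in Cy3 alone (134 and 82), 629 in a robust fit (316 and 313), and 167 and 179 with the NT embryos labelled 2_ or 3_ alone; the 598 probes became 3194 (3161 and 33), 1016, 319, 1128, 321 and 293. Quantile normalisation (351 genes), common spread (361), 1 probe per gene (360), both other filters (368 and 350), NT and AI alone (350) and no AI embryos labelled H (368) stayed within 1.5 times. Leaving out each embryo in turn gave 284 to 370. NT embryos labelled 2_ against 3_ gave 0 genes under the other scalings, dyes, probe rule, filters and sample sets and 23 in the robust fit; leaving out single embryos was not run for it. Of the 171 named genes that were called, 93 kept call and direction as deposited, 142 in Cy5 alone, 88 in Cy3 alone and 165 in the robust fit. As deposited 15 of these called genes turned, ATP6V0B (0.0102), C4A (0.0594), CCT3 (0.0171), DYNLRB1 (0.0465), EIF3CL (0.0294), GPX4 (0.0453), GSK3A (0.0040), MRPL33 (0.0671), OCLN (0.0708), PAG8 (0.0280), PSMA7 (0.0386), RELA (0.0461), SEC13 (0.0312), TIMM23 (0.0626) and VDAC2 (0.0542). The median of all genes moved there from 0.03 to 0.44. Named genes without a call that turned as deposited were CENPA (0.256), STAT3 (0.114) and ZP3 (0.164). Other called genes that turned were SLC26A2 (0.74) in Cy5 alone and SLC25A6 (-0.0688) in Cy3 alone. Of genes without a call, RARRES1 (0.36) turned in Cy5 alone, ZP3 (0.11) in Cy3 alone and CNOT7 (-0.22) with NT embryos labelled 2_. The cause was not tested. No paired analysis was possible because the numbers in the NT labels, such as 2_1, share none with those of the AI labels. Spot intensities were not analysed here, so that signal over background is unknown.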

Other observations

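Among the 61 genes that kept their call in either dye alone and under the 3 other scalings (as deposited, quantile and common spread), 44 were higher in NT embryos, and several belong to none of the groups described above. They were chosen after their values were seen, and the shift as deposited favours higher genes in this set. OAT, the mitochondrial ornithine aminotransferase that links ornithine with glutamate and proline, ran from 0.05 through a median of 0.50 to 0.95 in NT and from -0.61 through -0.25 to 0.44 in AI embryos. It rose by 0.67 ± 0.12 (limma, adjusted p = 0.000168), and 15 of 15 NT embryos had more than the mean of AI embryos. RIDA, a deaminase that clears reactive imines made from amino acids, rose by 0.67 ± 0.14 (limma, adjusted p = 0.00120). PGM3, an enzyme of the hexosamine pathway, rose by 0.81 ± 0.20 and TRDMT1, a tRNA methyltransferase, by 0.84 ± 0.23. FANCI, of the Fanconi anaemia repair pathway, rose by 0.34 ± 0.08, and NAB2, a corepressor of early growth response factors, by 0.76 ± 0.19.

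Falls outside the lists that ended as deposited included LGALS3, a galectin, which ran from 1.13 through 1.76 to 2.40 in NT and from 2.04 through 2.66 to 3.03 in AI embryos, with all 15 NT embryos below the AI mean (-0.74 ± 0.13, limma, adjusted p = 0.000132). In IVF minus AI embryos LGALS3 was at 0.26. SGK3, a kinase of the endosome, fell by 0.82 ± 0.15 and NELFB, a subunit of the complex that pauses RNA polymerase II, by 0.76 ± 0.14. ASS1, the argininosuccinate synthase of arginine synthesis, fell by 0.45 ± 0.12.

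The spread between embryos was also compared. NT embryos had the smaller SD in 56.4% of all genes, in 65.3% of the genes called higher and in 51.1% of those called lower in NT embryos, and the median SD over genes was 0.41 in NT and 0.44 in AI embryos.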
